A study of Mus musculus with 4 samples.

Results

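Neutrophils were examined as cluster 12, 1 of the 19 numbered cell groups in a table that the authors deposited with their single-cell counts. A cell belonged to it where the table gave it the number 12 and its library and barcode were found in the count matrices. By this rule 248 of 14491 cells were members, which were 53 cells of the control library, 38 of the anti-PD-1 library, 41 of the anti-CTLA-4 library and 116 of the combination library. All libraries held live CD45+ cells, that is white blood cells, sorted after collagenase digestion of tumours transplanted into wt 129S6 mice. Mice of each group were given 200 µg of antibody into the peritoneum on days 3, 6 and 9. The control group had a rat IgG2a isotype antibody, a second group anti-PD-1 (RMP1-14), a further group anti-CTLA-4 (9D9), and the combination group both checkpoint antibodies. PD-1 and CTLA-4 restrain activated T cells, and antibodies to them are used to release that restraint. The sources used here do not give the tumour line, the age of the mice or how many mice made up a library.

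Neutrophils are short-lived granulocytes that leave the bone marrow under G-CSF and reach inflamed tissue along gradients of CXCR2 ligands. Their granule proteins are transcribed mostly in marrow precursors, while mature cells keep abundant transcripts of the calcium-binding alarmins S100A8 and S100A9 and hold little RNA in all. In tumours they are a known source of chemokines and interleukin-1, and some of them can restrain T cells.

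Each group was a single library, so there was no replicate check, no test between groups and no p-value. Group, library and any preparation batch cannot be told apart. Values for the 4 libraries are given in the order control, anti-PD-1 alone, anti-CTLA-4 alone and combination. Intervals are 95% intervals that cover counting error only. Counts are of unique molecular identifiers (UMIs), each 1 captured transcript. Levels are in CPM, the UMIs of a gene divided by all UMIs of the cells named and multiplied by 1e6. Ratios are log2 ratios of such levels with 0.5 added to each count. The cluster held 148339, 81300, 69156 and 214280 UMIs, with a median of 1789, 1278.5, 1132 and 1393 UMIs and 711, 494.5, 404 and 487 genes per cell. Listed cells of all kinds numbered 3793, 3417, 3336 and 3945 and held 11176246 to 13374294 UMIs per library. Among listed cells 109 barcode sequences occurred in more than 1 library, 5 of them in a cluster 12 cell, and no cluster 12 cell shared its barcode with a cluster 12 cell of another library.

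The label held for most of the cluster and not for all of it. S100a9, G0s2, Gm5483, Stfa2l1, Il1f9, S100a8, Lrg1, Cxcr2, Wfdc21 and Hdc led the cluster over all other listed cells, and 5 of these 10 were on the list of neutrophil markers. All 15 markers on that list had UMIs. Together they reached 48424 CPM, against 394 CPM in clusters 0, 1, 2, 4 and 7 joined, myeloid clusters used below as the reference. The list includes S100a8, S100a9 and Il1r2, the markers of the label. S100a8 and S100a9 made up most of its sum in every library. The sum therefore largely restates the label, here and in the comparisons between libraries below. Ly6g, the surface protein by which mouse neutrophils are usually sorted, had only 1, 1, 0 and 7 UMIs. Eosinophil markers summed to 15.6 CPM with 7 of 10 genes at 0, Epx and Prg2 among them, and all 6 erythroid markers were at 0. Monocyte markers summed to 2612 CPM, basophil or mast cell markers to 93.6, NK cell markers to 78.0, B cell markers to 19.5 and platelet markers to 267 CPM. T cell markers summed to 561 CPM, against 58.9 CPM in the reference. The 3 lists of dendritic cell markers and the list for tumour cells or fibroblasts summed to between 3.90 and 93.6 CPM. Macrophage markers summed to 4855 CPM with none of the 12 at 0, against 13449.6 CPM in the reference. C1qa, a complement subunit made by macrophages, stood at 2399.9, 615, 362 and 625 CPM against 4432, 3118, 3211 and 2279 CPM, and Csf1r, the macrophage growth factor receptor, at 236, 123, 275 and 149 against 445, 419, 424 and 402 CPM. The monocyte genes Ly6c2 and Ccr2 had log2 ratios to the reference of -0.58 and -0.50 over all libraries.

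Those macrophage transcripts sat mostly in a distinct set of cells. The share of a cell's UMIs that came from the MHC class II genes H2-Aa, H2-Ab1, H2-Eb1 and Cd74 was under 0.5% in 164 cells and at least 2% in 62 cells, with only 17 cells from 0.5% to under 1% and 5 cells from 1% to under 2%. The line was drawn at 1% after these values were seen. It left 67 MHC class II-high cells, which numbered 24, 12, 7 and 24 in the 4 libraries, or 45.3, 31.6, 17.1 and 20.7% of the cluster. A UMI of a C1q gene, made by macrophages, was found in 52 of these 67 cells, and 65 of the 67 also held S100a8 or S100a9. They held a median of 3675 UMIs, against 2294 in the 21 MHC class II-low cells with a UMI of Cd3d, Cd3e or Cd3g and 1150 in the other 160 cells. These 160 cells, called MHC class II-low cells from here on, numbered 21, 23, 31 and 85 in the 4 libraries. In 137 of them S100a8 and S100a9 made up at least 1% of UMIs. A UMI of a C1q gene was found in 25 of the 160, so the line did not remove all cells with C1q. Over the 160 cells neutrophil markers summed to 90905 CPM and T cell markers to 22.9 CPM. Macrophage markers summed to 271 CPM, with Mrc1, Vcam1 and Cd72 at 0. Monocyte markers summed to 2157 CPM in this set against 3207 in the reference, and to 1363, 2092, 3543 and 1889.6 CPM in the 4 libraries, or 766 with anti-PD-1 without its largest cell. Basophil or mast cell markers summed to 0, 1005, 25.1 and 62.1 CPM there. The part of such cells in the values of this set was not tested. In the MHC class II-high cells the neutrophil list summed to 14586 CPM and the macrophage list to 9875 CPM. Whether the MHC class II-high cells are single cells, 2 cells under 1 barcode or cells with free RNA was not tested.

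**Figure D1:**
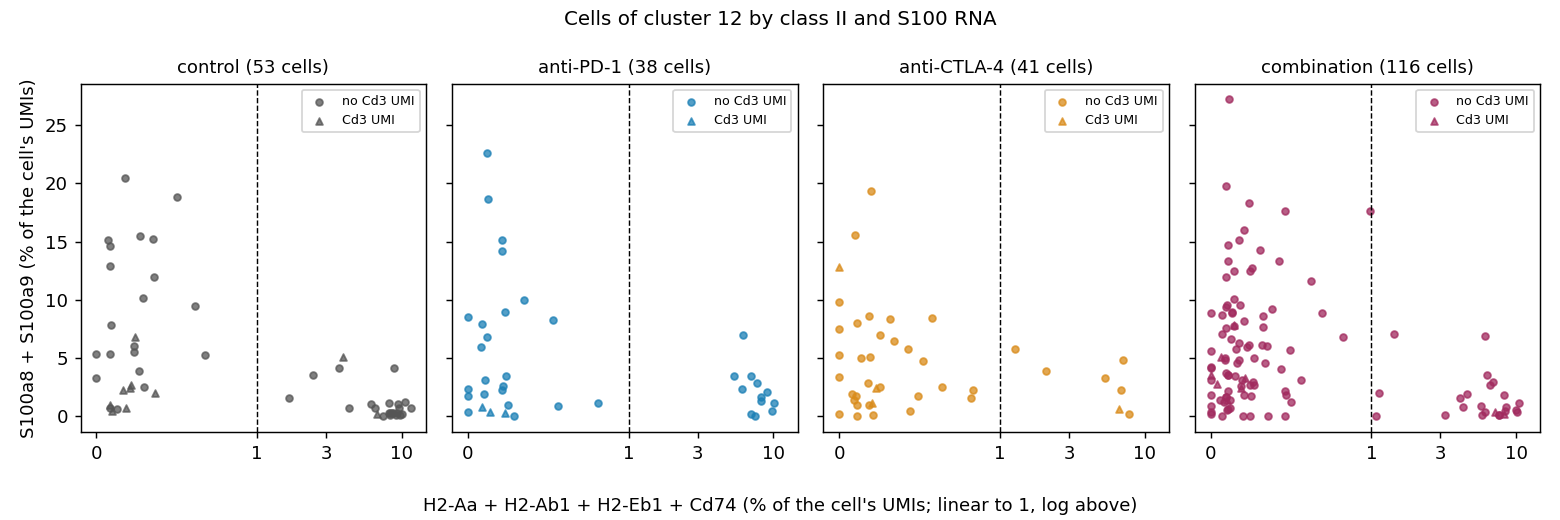
Each point is 1 cell of cluster 12 in the library named above the panel. The horizontal axis is the percent of the cell's UMIs from H2-Aa, H2-Ab1, H2-Eb1 and Cd74, the vertical axis the percent from S100a8 and S100a9, and the dashed line marks 1% of MHC class II UMIs. The 67 cells right of the line lie mostly low on the vertical axis, and the 24 of the control library are nearly as many as the 29 left of it.

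The makeup of the cluster differed between libraries, so the level of a gene summed over the whole cluster mixes both sets in unequal parts. MHC class II-low cells held 28622, 36807, 39792 and 112720 of the cluster's 148339, 81300, 69156 and 214280 UMIs. MHC class II-high cells held 99251, 37081, 22879 and 85952. Ratios to the reference below are over the whole cluster, MHC class II-high cells included, unless MHC class II-low cells are named. Over the whole cluster the neutrophil list summed to 29453, 86261, 43929.7 and 48651 CPM and the macrophage list to 10105, 2779.8, 1981 and 2935 CPM. The anti-PD-1 value of the neutrophil list was 34423 CPM without its largest cell, of 13322 UMIs. In the MHC class II-low cells the neutrophil list summed to 99049.7, 167088, 55715 and 76384 CPM and the macrophage list to 524, 217, 402 and 177 CPM. Without the same cell the anti-PD-1 neutrophil value there was 62891 CPM, which moved that library from the highest of the 4 to below control and the combination. For that reason many lists and genes are compared between libraries below both for the whole cluster and for the MHC class II-low cells. Others are given for only 1 of these. Outside cluster 12, only 12 listed cells had S100a8 and S100a9 at 1% of UMIs or more, and none of the 127 barcodes left off the authors' list did.

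S100a8 and S100a9, which encode the 2 subunits of calprotectin, marked the cluster in every library. S100a8 stood at 12343, 31808, 16166 and 20515 CPM in the cluster and at 49.96, 108, 85.8 and 208 CPM in the reference. For S100a9 the levels were 12970.3, 23653, 20418 and 19027 CPM against 13.2, 10.6, 9.74 and 25.6 CPM. Within single libraries the log2 ratio to the reference ran from 6.62 to 8.21 for S100a8 and from 9.54 to 11.12 for S100a9. Every library of the cluster lay far above every library of the reference. The clusters were made from these same cells and genes, so ratios to the reference describe the cluster and test nothing. After each cell was thinned to 800 UMIs, which left out 2 of 248 cells, S100a8 was seen in 87.0% (82.1 to 90.9) of cells and S100a9 in 91.1% (86.8 to 94.3), and without thinning in 94.4% and 95.2%. In T cell-like clusters 3, 6, 8, 9 and 10, whose cells should lack both genes, the thinned shares were 1.07% (0.770 to 1.45) and 0.732% (0.487 to 1.06). The median depth was 1386.5 UMIs in cluster 12 and 1932 UMIs in the T cell-like clusters. The pair was seen together in 231 of the 248 cells, S100a8 alone in 3, S100a9 alone in 5 and neither in 9.

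Because the pair occurred together in almost all cells, the 250 bases before each RefSeq start site are shown, read from build GRCm38.p6 on the strand of the gene (S100a8 at chr3:90668821-90669070 on the plus strand, S100a9 at chr3:90695722-90695971 on the minus strand). Capitals mark the only match to 1 of 3 motifs searched on both strands, which were TTGCNNAA (C/EBP-type), AGGAAGT (PU.1-type) and an NF-kappaB-type motif of GGGA, any base and TTTCC.
S100a8: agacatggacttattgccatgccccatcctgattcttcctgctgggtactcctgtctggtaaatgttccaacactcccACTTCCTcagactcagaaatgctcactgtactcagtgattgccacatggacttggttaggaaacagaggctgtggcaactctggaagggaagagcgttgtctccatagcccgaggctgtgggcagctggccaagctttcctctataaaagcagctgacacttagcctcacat
S100a9: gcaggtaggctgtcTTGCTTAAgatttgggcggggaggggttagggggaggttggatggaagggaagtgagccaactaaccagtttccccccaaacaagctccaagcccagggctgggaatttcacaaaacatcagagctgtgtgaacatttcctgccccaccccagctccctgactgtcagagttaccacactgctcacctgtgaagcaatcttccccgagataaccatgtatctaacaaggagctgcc
The S100a8 match is the reverse complement of AGGAAGT and starts 172 bases before the start site, and the S100a9 match to TTGCNNAA starts 236 bases before it. Windows of the same length held AGGAAGT at 7.69% and TTGCNNAA at 9.56% of 32851 start sites. A match is a run of letters and shows no binding.

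Some other cytosolic antimicrobial genes also stood far above the reference. Over all genes, 13.2% of 11131 with at least 20 UMIs in the 2 sums were at least 2-fold higher in cluster 12 than in the reference and 21.0% at least 2-fold lower. Of 12 measured alarmin and cytosolic antimicrobial genes 7 were at least 2-fold higher and 0 lower. Their median log2 ratio was 3.95, against -0.32 over all genes. S100a8 and S100a9 are on this list and among the 7, so the count and the median include markers of the label. The list was drawn from genes known for neutrophils, and its count describes the choice as much as the cluster. The stefin A family members, inhibitors of cysteine proteases, had some of the highest ratios: BC100530 was at 474 CPM over all libraries against 0.205 in the reference, Stfa2l1 at 331 against 0.171 and Gm5483 at 684 against 0.650. These 3 are near-identical copies, so how their counts divide is uncertain. Wfdc21, a small protease inhibitor-like protein, was at 785 against 10.3 CPM. Ranked by the smallest of the 4 within-library ratios, the highest genes with UMIs in every library of the cluster were BC100530, S100a9, Stfa2l1, Gm5483, G0s2, Retnlg, Il1f9, BC018473, Asprv1, Lcn2, Cxcr2, S100a8, Ccl3 and Lrg1, with ratios over all libraries from 6.38 to 11.06. Ngp also came among the 15 by that rank, but it had 0 UMIs with anti-CTLA-4 in the cluster and in the reference, so its smallest ratio comes from the 0.5 added to each count and shows no difference there. Over the whole cluster S100a6 and S100a4, relatives of the pair with wide expression, were near the reference at log2 ratios of 0.08 and -0.06.

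Granule protein genes were present and very unevenly spread over cells. Of 12 measured specific granule genes 8 were at least 2-fold higher than in the reference and 2 lower, with a median log2 ratio of 3.04. Ngp and Camp, antimicrobial proteins made by marrow precursors, had 1, 1260, 0 and 173 UMIs and 1, 871, 1 and 117 UMIs. Nearly all of the anti-PD-1 total came from 1 cell, which held 1259 of Ngp and 871 of Camp among its 13322 UMIs. The combination total came from 4 cells for Ngp and 2 for Camp. That anti-PD-1 cell also held 34 UMIs of Ltf (lactoferrin), 42 of Lcn2, 21 of Cebpe, a factor of granulocyte precursors, and all 24 UMIs of Prtn3, 8 of Elane and 4 of Mpo in the cluster, the last 3 being enzymes of azurophil granules. Lcn2, an iron-scavenging granule protein, was spread more widely, with 13, 69, 6 and 62 UMIs in 7, 13, 4 and 26 cells, and its within-library log2 ratio to the reference ran from 7.17 to 10.20. Mmp9, the gelatinase of late granules, stood at 74.2, 98.4, 43.4 and 168 CPM against 0.516, 1.19, 1.31 and 3.13 CPM in the reference. Lyz2 and Cybb, which macrophages share, were lower than in the reference at log2 ratios of -1.37 and -1.22, and at -3.03 and -2.42 in MHC class II-low cells.

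Most genes of mature neutrophils and most receptor genes on the lists were higher than in the reference. Of 19 measured maturity genes 16 were at least 2-fold higher and 0 lower, with a median log2 ratio of 2.60. For chemoattractant and pathogen receptors the count was 12 of 18 higher and 0 lower, with a median of 1.82. Cxcr2, the receptor for CXCL1, CXCL2 and CXCL3, stood at 222, 258, 159 and 294 CPM against 1.42, 1.98, 0.291 and 0.994 CPM in the reference. Csf3r, the G-CSF receptor, stood at 243, 197, 390.4 and 467 CPM against 48.1, 57.8, 71.8 and 53.6 CPM. Thinned to 800 UMIs, Cxcr2 was seen in 23.2% (18.0 to 29.0) of cells and Csf3r in 22.8% (17.7 to 28.5), and unthinned in 32.3% and 40.7%. In T cell-like clusters Csf3r was seen in 0.131% (0.0425 to 0.305) and Cxcr2 in 0 of 3824 thinned cells, which allows a share of up to 0.0785%. At this depth a cell without a UMI of either may still express them.

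Il1r2, the decoy receptor that binds interleukin-1 without signalling, the third marker of the label, was nearer to the reference than S100a8 and S100a9. Its level was 917, 935, 1229 and 873 CPM against 178, 107, 107 and 29.5 CPM in the reference, and among the reference clusters it was 261 CPM in cluster 0, 82.8 in cluster 1, 18.9 in cluster 2, 37.7 in cluster 4 and 99.3 in cluster 7. G0s2, an inhibitor of triglyceride breakdown, stood at 769, 836, 2545 and 3500.1 CPM against 1.68, 0.794, 2.04 and 2.13 CPM. Hdc, which makes histamine from histidine, stood at 1025, 1009, 1822 and 1353 CPM against 12.3, 18.1, 13.4 and 7.39 CPM. Retnlg, a resistin-like secreted protein, had 67, 6, 49 and 68 UMIs in 10, 4, 16 and 29 cells against 0.342 CPM over the reference. Mxd1, a repressor that opposes MYC, had a log2 ratio of 3.47, and Trem1, an activating receptor of neutrophils and monocytes, of 3.17. Fpr1 and Fpr2, receptors for formylated bacterial peptides, had 3.39 and 1.89, and C5ar1, the receptor for complement C5a, 1.49. Cxcr4, the receptor of aged and marrow-homing neutrophils, was 0.45 at 95.5 CPM. Siglecf, reported on some tumour neutrophils and on eosinophils, had 1 UMI.

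Chemokines divided into a set far above the reference and a set below it. Of 20 measured ligands 8 were at least 2-fold higher and 8 at least 2-fold lower. Cxcl2, a ligand of CXCR2, stood at 17170.1, 18204, 40893 and 43308 CPM against 796, 891, 1279 and 1881 CPM in the reference. Cxcl3, its close relative, stood at 1591, 1673, 2588 and 4079 CPM against 27.0, 54.2, 44.2 and 156 CPM. Ccl3 and Ccl4, which draw T cells and monocytes, stood at 3762, 6162, 8387 and 9077 CPM and 3937, 8708, 13795 and 15330.4 CPM, with log2 ratios over all libraries of 6.38 and 5.46. For all 4 of these ligands each library of the cluster was above all 4 of the reference. Below the reference were the monocyte attractants Ccl2, Ccl7 and Ccl12 at log2 ratios of -1.72, -2.35 and -1.93, and Cxcl9, a ligand of the T cell receptor CXCR3, at -1.68. In MHC class II-low cells these were at -1.84, -5.17, -5.36 and -4.04. Cxcl10, another CXCR3 ligand, was at 374 CPM against 166.

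Cxcl3 was seen only where Cxcl2 was: 157 cells held UMIs of both, 81 of Cxcl2 alone, 0 of Cxcl3 alone and 10 of neither. A further CXCR2 ligand of the family, Cxcl1, appeared in 14 cells, all of the combination library and all with Cxcl2. It had 51 UMIs, of which 26 came from 1 cell. Only 10 cells of the cluster lacked Cxcl2, so an overlap with it shows little. The 250 bases before the start sites of these 3 genes, which lie near each other on chromosome 5, all on the plus strand of GRCm38.p6 (Cxcl1 at chr5:90890995-90891244, Cxcl2 at chr5:90903649-90903898, Cxcl3 at chr5:90785851-90786100), are shown for what they share, with the match to the NF-kappaB-type motif in capitals.
Cxcl1: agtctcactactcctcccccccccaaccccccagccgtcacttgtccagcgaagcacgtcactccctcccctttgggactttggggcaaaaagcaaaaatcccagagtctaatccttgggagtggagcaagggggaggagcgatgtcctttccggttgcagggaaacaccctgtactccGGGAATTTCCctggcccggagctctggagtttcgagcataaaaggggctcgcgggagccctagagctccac
Cxcl2: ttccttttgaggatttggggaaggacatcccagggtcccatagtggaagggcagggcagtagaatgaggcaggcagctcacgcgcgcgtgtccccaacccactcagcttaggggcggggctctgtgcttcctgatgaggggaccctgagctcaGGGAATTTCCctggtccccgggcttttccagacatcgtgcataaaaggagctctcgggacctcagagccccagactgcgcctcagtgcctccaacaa
Cxcl3: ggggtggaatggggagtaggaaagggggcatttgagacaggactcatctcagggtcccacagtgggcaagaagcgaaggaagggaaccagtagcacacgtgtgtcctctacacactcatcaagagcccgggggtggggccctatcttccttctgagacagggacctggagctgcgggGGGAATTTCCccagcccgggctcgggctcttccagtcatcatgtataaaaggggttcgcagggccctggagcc
All 3 hold the same 10 letters GGGAATTTCC, which begin 71, 97 and 73 bases before the start sites of Cxcl1, Cxcl2 and Cxcl3, and 0.356% of the 32851 windows hold a match to the motif. The motifs were picked after the sequences had been read, and which factor was bound in these cells was not measured.

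Of 20 measured cytokine and growth factor ligands 13 were at least 2-fold higher than in the reference and 0 lower, with a median log2 ratio of 1.74. Il1b stood at 5002, 4908, 6493 and 6165 CPM against 781, 916, 1005 and 698 CPM, and Il1rn, the receptor antagonist that blocks it, at 897, 1427, 1865 and 2333 against 190.3, 305, 266 and 412 CPM. Osm (oncostatin M) had a log2 ratio of 2.44, Tnf of 2.98 and Csf1, the macrophage growth factor, of 6.58. Of the 12, 12, 9 and 63 UMIs of Csf1 39 came from 1 cell of the combination library.

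Most genes on the list of type I interferon-induced genes were higher than in the reference: 18 of 30 were at least 2-fold above the reference and 0 below, with a median log2 ratio of 1.65 in the cluster and 2.08 in MHC class II-low cells. Isg15, a ubiquitin-like modifier, stood at 1793, 1476, 4483 and 3528 CPM against 249, 354, 395 and 226 CPM. Rsad2 (viperin) stood at 1004, 443, 1215 and 695 against 27.8, 36.0, 82.3 and 58.0 CPM and Slfn4, a schlafen family member of myeloid cells, at 289.9, 148, 781 and 257 against 13.2, 13.2, 10.9 and 11.9 CPM. The 30 genes of the list held a median of 3.20, 2.39, 2.85 and 1.91% of a cell's UMIs among MHC class II-low cells, and single cells ran from 0.327, 0.212, 0.214 and 0.154% up to 8.35, 7.83, 9.05 and 8.29%. The joined reference hides a spread between its clusters. In cluster 7 the medians were 1.88, 1.85, 1.21 and 0.657%, and over the whole cluster of neutrophils 1.04, 1.43, 2.65 and 1.57%. Cluster 7 was thus above the whole cluster in control and with anti-PD-1, and below it in the other libraries. The MHC class II-low medians were above those of cluster 7 in every library.

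Of 26 measured genes linked to suppressive or tumour-associated neutrophils 16 were at least 2-fold higher than in the reference and 3 lower. Cd274, the gene of PD-L1, which binds PD-1, stood at 384, 750.3, 1316 and 1176 CPM against 91.9, 231, 260.4 and 264 CPM. Ptgs2, the prostaglandin-forming cyclooxygenase COX-2, stood at 384, 185, 362 and 429 against 51.4, 86.6, 123 and 67.8 CPM. Arginase 1, the arginine-degrading enzyme often used to mark suppressive myeloid cells, went the other way: Arg1 was at 74.2, 443, 202 and 238 CPM in the cluster and at 369, 1409.6, 1139 and 3730.4 CPM in the reference, while the mitochondrial isoform Arg2 was at 115, 221, 405 and 229 against 55.4, 59.8, 67.2 and 75.2 CPM. Nos2, the inducible nitric oxide synthase, had 0, 0, 2 and 8 UMIs. Hcar2, a receptor for ketone bodies and niacin, had a log2 ratio of 4.71, and Hilpda and Ero1l, which respond to low oxygen, of 1.73 and 1.61. Mcl1, a survival factor of neutrophils, was near the reference at 0.36.

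Among the genes lowest against the reference in all 4 libraries were the arginase Arg1, the elastase Mmp12, Gm4841, the platelet-type chemokine Pf4, the metal-binding Mt1, Ccl7, the selenoprotein Sepp1, the lysosomal Ctsa and the mitochondrial carrier Slc25a5. Their log2 ratios over all libraries ran from -2.89 to -1.32 and in MHC class II-low cells from -5.86 to -2.62. Over all genes of MHC class II-low cells 17.8% of 11110 were at least 2-fold higher and 38.9% at least 2-fold lower than in the reference. Of 21 lipid and lysosome genes 1 was at least 2-fold higher and 7 lower. Of 14 MHC class II and costimulation genes 11 were at least 2-fold lower over the whole cluster. Ribosomal protein genes, which make up much of the mRNA of growing cells, had a median log2 ratio of -0.48 over the cluster and -2.28 in MHC class II-low cells, where 22 of 22 were at least 2-fold lower. With median-of-ratios scaling 57.7% of the 2-fold differences of the whole cluster were higher, against 38.6% by CPM.

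The remaining lists ranged from medians near 0 to counts above the share over all genes. Immediate early and heat shock genes had 9 of 21 at least 2-fold higher, with Egr1, an early response transcription factor, at a log2 ratio of 3.21, and Junb, a subunit of AP-1, at 1.06. Among myeloid transcription factors 7 of 24 were at least 2-fold higher: Cebpb, the C/EBP factor of mature and emergency granulocytes, was at 1.25, while Spi1, which encodes PU.1, was at 0.35. The NADPH oxidase, which makes the oxidants of the respiratory burst, had 0 of 7 genes at least 2-fold higher and 1 lower, Cybb, with a median of -0.06. MHC class I presentation genes had a median of -0.10 and actin and motility genes of -0.16. Proliferation genes had 11 of 20 at least 2-fold higher and 0 lower, with a median of 1.48. In MHC class II-low cells, the large anti-PD-1 cell included, 10 of 20 were at least 2-fold higher and 3 lower, with a median of 1.27. These counts are relative to clusters 0, 1, 2, 4 and 7 only, and whether cells of the cluster divide was not tested. Hmgb2, a chromatin protein of dividing cells, had 50, 68, 17 and 48 UMIs, and the large anti-PD-1 cell held 50 of the 68 of its library. Other receptors of the cluster were Clec4e (Mincle) at 2.76, the platelet-activating factor receptor Ptafr at 2.07, the LPS co-receptor Cd14 at 1.83 and the chemerin-binding Ccrl2 at 3.37, whose within-library ratios ran from 3.27 to 3.48. Nlrp3, the inflammasome sensor upstream of interleukin-1 beta, was at 2.53, and Nfkbia, the NF-kappaB inhibitor that NF-kappaB itself induces, at 2.08.

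Cluster 12 held a larger share of the combination library than of any other. The shares of listed cells were 1.40% (1.05 to 1.82) in control, 1.11% (0.788 to 1.52) with anti-PD-1, 1.23% (0.883 to 1.66) with anti-CTLA-4. With the combination the share was 2.94% (2.44 to 3.52). Divided by the control share these were 0.796 (0.510 to 1.23), 0.880 (0.570 to 1.35) and 2.10 (1.51 to 2.97), all by the exact Clopper-Pearson and conditional intervals. The higher share was that of the MHC class II-low cells. They were 0.554, 0.673, 0.929 and 2.15% of listed cells, and their ratios to control were 1.22 (0.643 to 2.31), 1.68 (0.934 to 3.07) and 3.89 (2.39 to 6.61). MHC class II-high cells were 0.633, 0.351, 0.210 and 0.608% of listed cells, with ratios of 0.555, 0.332 and 0.961, and only the anti-CTLA-4 interval (0.121 to 0.793) lay below 1. Counted without the authors' clusters, as listed cells with at least 1% of UMIs from the calprotectin pair, the combination ratio was 2.51 (1.69 to 3.80). Only 12 cells outside cluster 12 reached that share, and 63 of its 248 cells fell under it. This count is therefore largely of the same cells and is no independent check. Counted as listed cells with a UMI of S100a8, of S100a9 and of Csf3r or Cxcr2, the combination ratio was 2.31 (1.54 to 3.53). That count again requires S100a8 and S100a9, markers of the label, and is no independent check either. Over cluster 12 cells without a UMI of a Cd3 or C1q gene the combination ratio was 4.22 (2.51 to 7.48). The combination ratio was above 1 beyond counting error in each of these counts other than that of MHC class II-high cells, where the interval ran from 0.523 to 1.77.

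**Figure D2:**
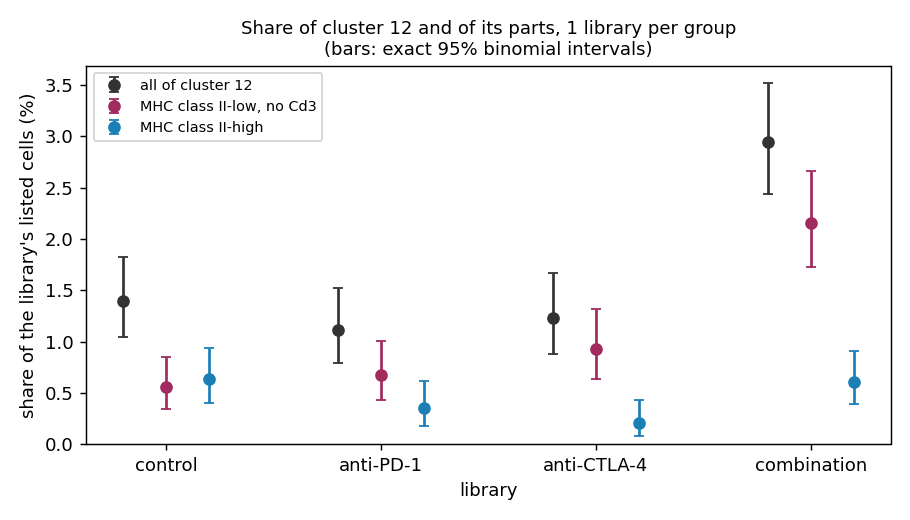
Percent of listed cells per library for cluster 12 as a whole, its MHC class II-low cells and its MHC class II-high cells, with exact 95% intervals for counting error and 1 library per group. The combination library is highest for the whole cluster (2.94%) and for the MHC class II-low cells (2.15%), while the MHC class II-high cells are at 0.633% in control and 0.608% in the combination.

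Comparisons between libraries gave different values over the whole cluster and over its MHC class II-low cells. In the combination 12.2% of 1950 genes were at least 2-fold higher than in control and 21.5% at least 2-fold lower, and the median log2 ratio of all genes was -0.28. Median-of-ratios scaling moved that median to 0.05 and the share of 2-fold differences that were higher from 36.2% to 60.8%. With anti-PD-1 7.62% of 1469 genes were at least 2-fold higher and 12.5% lower, and with anti-CTLA-4 11.4% and 21.0% of 1374. Among MHC class II-low cells, where only 444 to 750 genes had 20 UMIs, 16.1% were at least 2-fold higher and 11.1% lower in the combination, 21.8% and 17.6% with anti-PD-1, and 21.7% and 13.1% with anti-CTLA-4. Shares of this size among all genes are what the counts below are read against. The 21 control cells of this set held 28622 UMIs, so the control side of each ratio rests on few counts. In the anti-PD-1 library 1 cell held 36.2% of the set's UMIs, and leaving it out raises the log2 ratio of any gene it lacks by 0.65, so anti-PD-1 ratios of named genes in the set are also given without it. The 3 comparisons with control share its library.

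The calprotectin genes differed in direction between the whole cluster and its MHC class II-low cells. Over the whole cluster S100a8 in the combination was 0.73 (0.65 to 0.81) in log2 ratio to control and S100a9 0.55 (0.47 to 0.63). In the MHC class II-low set S100a8 stood at 43358, 58929, 20733 and 32177 CPM and S100a9 at 43812, 42954, 24578 and 29533 CPM, and the ratios were -0.43 (-0.52 to -0.34) and -0.57 (-0.66 to -0.47). The control library was lowest over the whole cluster and above the combination among the MHC class II-low cells. For anti-PD-1 the S100a8 ratio was 0.44 among these cells and -0.63 without the 1 cell of 13322 UMIs, which held 1513 UMIs of S100a8 and 978 of S100a9. The S100a9 ratio for anti-PD-1 was -0.03 and, without that cell, -0.77 (-0.91 to -0.63). In the reference clusters the S100a8 ratio of the combination to control was 2.06.

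**Figure D3:**
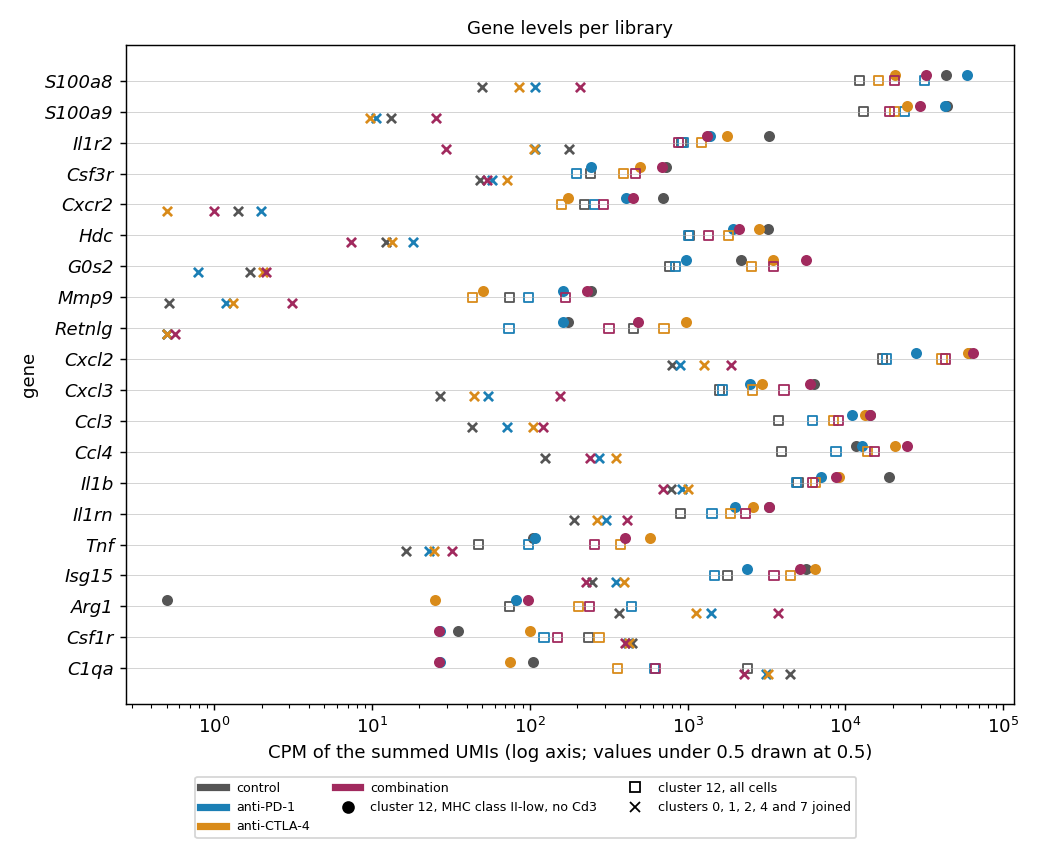
Level of 20 genes in each library, in CPM on a log axis, for all cluster 12 cells (open squares), its MHC class II-low cells (filled circles) and clusters 0, 1, 2, 4 and 7 (crosses). S100a8 in control is at 12343 CPM over the cluster and 43358 CPM in MHC class II-low cells, the widest such gap being in the control library.

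Chemokine ligands were higher with the combination over the whole cluster, where 9 of 16 measured ligands were at least 2-fold above control and 2 below, with a median log2 ratio of 1.09. For the MHC class II-low cells the count was 3 of 10 above and 0 below, with a median of 0.36. Ccl4 kept its direction: it stood at 11669, 12824, 20758 and 24485 CPM among MHC class II-low cells, and the combination ratio was 1.96 (1.83 to 2.09) over the cluster and 1.07 (0.90 to 1.24) in that set. Ccl6, a CCR1 ligand of myeloid cells, stood at 2341, 1494, 2815 and 5385 CPM in the set, with ratios of 1.57 (1.33 to 1.81) and 1.19 (0.84 to 1.59). For Cxcl2, Cxcl3 and Ccl3 the ratio lay near 0 in that set. Their MHC class II-low levels were 60443, 27984, 59559.7 and 64798 CPM for Cxcl2, 6359, 2472, 2940.3 and 5971 CPM for Cxcl3 and 14395, 11003, 13244 and 14257 CPM for Ccl3. The combination ratios went from 1.33, 1.36 and 1.27 over the cluster to 0.10 (0.02 to 0.18), -0.09 (-0.33 to 0.15) and -0.02 (-0.17 to 0.15) in that set. The anti-PD-1 library had the lowest Cxcl2 and Cxcl3 of the 4 among MHC class II-low cells, at log2 ratios of -1.11 (-1.22 to -0.999) and -1.36 (-1.74 to -0.99), and without its largest cell at -0.46 and -0.71. Cxcl10 had 19, 0, 26 and 91 UMIs in the set, with the anti-PD-1 library at 0. Cxcl1, with 0, 0, 0 and 51 UMIs over the cluster, was at least 11.8-fold higher in the combination than in control, set at the floor of 3 UMIs per library.

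Of 11 cytokine and growth factor ligands 7 were at least 2-fold higher with the combination over the whole cluster, and 1 of 10 higher with 2 lower among MHC class II-low cells. Tnf had 7, 8, 26 and 55 UMIs in 6, 6, 14 and 29 cells, and its ratio in the MHC class II-low cells was 2.27 (0.74 to 4.84) under anti-CTLA-4 alone and 1.72 (0.29 to 4.26) under both antibodies. Il1b went the other way in that set, at 19006, 6982, 9122 and 8721 CPM with ratios of -1.44 (-1.66 to -1.23), -1.06 (-1.25 to -0.86) and -1.12 (-1.28 to -0.97) in the 3 treated libraries, and -0.80 for anti-PD-1 without its largest cell. Across all cells of the cluster they were -0.03, 0.38 and 0.30. All 3 treated libraries lay below control for Il1b in MHC class II-low cells, and none of their intervals included 0. These intervals treat UMIs as independent counts and leave out the spread between cells, of which control had 21. Thbs1, thrombospondin, was at 1258, 299, 276 and 559 CPM in the set with ratios of -2.03, -2.14 and -1.18, and -1.38 for anti-PD-1 without its largest cell.

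Among genes of mature and activated neutrophils, G0s2 was higher in both libraries with anti-CTLA-4. Its MHC class II-low levels were 2166, 978, 3493 and 5642 CPM, with ratios of -1.14 (-1.78 to -0.53), 0.68 (0.25 to 1.15) and 1.37 (1.00 to 1.78), and -0.66 for anti-PD-1 without its largest cell. After thinning, G0s2 was seen in 52.4% (29.8 to 74.3) of the MHC class II-low cells in control, 30.4% (13.2 to 52.9) of the anti-PD-1 cells, 67.7% (48.6 to 83.3) of the anti-CTLA-4 cells and 78.3% (67.9 to 86.6) of the combination cells, and without thinning in 57.1, 39.1, 71.0 and 81.2%. In T cell-like clusters the thinned share was 0.235% (0.108 to 0.446). The intervals of control and of both anti-CTLA-4 libraries overlap, and that of the combination lies above that of anti-PD-1. Wfdc17, a secreted antiprotease-like protein of activated macrophages and neutrophils, had 2, 16, 78 and 160 UMIs in the set, with ratios of 2.36 (0.55 to 5.80), 4.50 (2.91 to 7.88) and 4.03 (2.47 to 7.40). Over the cluster Wfdc17 was seen in 7, 13, 20 and 49 cells, and its top cell held 27 UMIs. Control was the lowest library for Wfdc17 in both views, with only 2 UMIs in the MHC class II-low set. Socs1, an inhibitor of cytokine signalling that interferons induce, had 3, 12, 20 and 76 UMIs in the set with ratios of 1.47 (-0.25 to 4.10), 2.07 (0.51 to 4.66) and 2.47 (1.08 to 4.99). Irf1, a transcription factor induced by interferon gamma, had 13, 15, 80 and 108 UMIs with ratios of -0.16, 2.10 and 1.03. Of the Irf1 UMIs of the anti-CTLA-4 library 45 came from 1 cell. Il1f9 (interleukin-36 gamma) had ratios of 0.32, 0.93 and 1.15, and Hilpda of -0.27, 1.16 and 1.14. Without the largest anti-PD-1 cell the anti-PD-1 ratios were 2.92 for Wfdc17, 1.87 for Socs1, 0.48 for Irf1, 0.81 for Il1f9 and 0.38 for Hilpda, so those of Irf1 and Hilpda changed sign.

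Among MHC class II-low cells Fpr1 and Il1r2 were lower than control in every treated library, while the number of lower receptors with anti-PD-1 changed with 1 large cell. Of the measured chemoattractant and pathogen receptors 5 of 10 were at least 2-fold lower with anti-PD-1. The count was 6 of 12 with anti-CTLA-4 and 4 of 13 in the combination, and 0, 1 and 0 at least 2-fold higher. Without the largest anti-PD-1 cell 1 of 10 was lower with anti-PD-1, where over all genes 12.5% of 351 were at least 2-fold higher and 11.7% lower. With all cells of the set, the largest anti-PD-1 cell included, the median log2 ratios of the list were -1.13, -1.16 and -0.75. Over the whole cluster the medians were -0.13, -0.22 and 0.22. Fpr1 had 33, 8, 6 and 33 UMIs in the set with ratios of -2.34, -2.84 and -1.98, and 18 of the control UMIs came from 1 cell. Il1r2 stood at 3284, 1386, 1784 and 1322 CPM with ratios of -1.24 (-1.77 to -0.74), -0.88 (-1.35 to -0.42) and -1.32 (-1.70 to -0.92), and 34 of the control UMIs of the cluster came from 1 cell. Cxcr2 stood at 699, 408, 176 and 452 CPM with ratios of -0.77, -1.93 and -0.65, and Csf3r at 734, 245, 503 and 692 CPM with ratios of -1.54, -0.54 and -0.11. Without its largest cell the anti-PD-1 ratios were -1.69 (-3.08 to -0.62) for Fpr1, -0.65 (-1.18 to -0.14) for Il1r2, -0.12 (-1.20 to 0.91) for Cxcr2 and -0.89 (-2.25 to 0.25) for Csf3r, the last 2 within counting error of 0. Over the whole cluster the combination ratios of Fpr1 and Il1r2 were smaller in size, at -0.46 and -0.07.

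The median of type I interferon-induced genes was below 0 among MHC class II-low cells and above 0 over the whole cluster in both libraries with anti-CTLA-4. Among MHC class II-low cells 9 of 23 type I interferon-induced genes were at least 2-fold lower with the combination and 0 higher, with a median log2 ratio of -0.67. With anti-PD-1 8 of 17 were lower and 1 higher, with a median of -0.88. Without the largest anti-PD-1 cell 4 of 16 were lower and 2 higher, with a median of -0.36. With anti-CTLA-4 5 of 19 were lower and 1 higher, with a median of -0.04. Over the whole cluster the medians were -0.17, 0.72 and 0.23. Rsad2 had 118, 30, 68 and 117 UMIs in the set with ratios of -2.32 (-2.97 to -1.75), -1.27 (-1.72 to -0.83) and -1.99 (-2.37 to -1.61), and Ifit1 had 63, 16, 57 and 52 UMIs with ratios of -2.31, -0.62 and -2.25. Of the Rsad2 UMIs of the control cells 49 came from 1 cell. Isg15 stood at 5660.0, 2364, 6383 and 5137 CPM with ratios of -1.26, 0.17 and -0.14. The anti-PD-1 ratio of Isg15 was -0.66 (-1.06 to -0.27) without the largest cell, and those of Rsad2 and Ifit1 were -1.67 and -1.85. Cd274 stood at 1258, 1032, 1859.7 and 1694 CPM, with ratios of -0.29 (-0.98 to 0.41), 0.55 (-0.03 to 1.18) and 0.41 (-0.09 to 0.99), against 0.96, 1.77 and 1.60 over the whole cluster. Without the largest cell the anti-PD-1 ratio of Cd274 in the set changed sign to 0.36 (-0.33 to 1.06).

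Signs of RNA quality among MHC class II-low cells differed beside these values. There, 6 of 7 mitochondrially encoded genes were at least 2-fold lower with the combination, with a median log2 ratio of -1.48, against -0.22 and 0.02 with anti-PD-1 and anti-CTLA-4. The median cell had 0.167, 0.0870, 0.110 and 0.0784% of its UMIs from these genes, and the highest cell 12.4, 11.6, 8.80 and 4.41%. Ribosomal protein genes were at least 2-fold higher in 13 of 18 with anti-PD-1, in 8 of 16 under anti-CTLA-4, and in the combination in 1 of 16 with 4 lower. Without the largest anti-PD-1 cell 3 of 8 were higher. Across all cells of the cluster 17 of 22 ribosomal protein genes were at least 2-fold lower with the combination, with a median of -1.25, where MHC class II-high cells were 20.7% of the cluster against 45.3% in control. The part of depth, RNA quality and cell makeup in the differences between libraries was not tested.

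**Figure D4:**
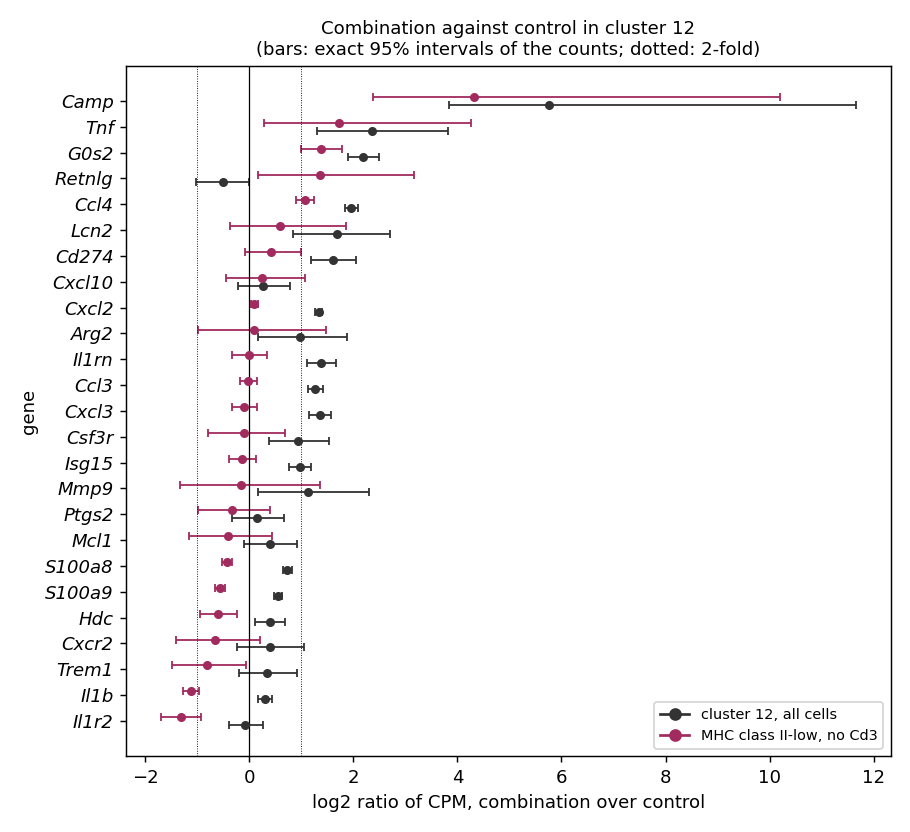
Log2 ratio of combination to control for 25 genes, over all cluster 12 cells and over its MHC class II-low cells, with 95% intervals for counting error only. S100a8 and S100a9 lie above 0 over all cells and below 0 in the MHC class II-low cells, while G0s2 and Ccl4 lie above 0 in both.

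The list of specific granule genes was highest with anti-PD-1, and that rested on few cells. With anti-PD-1 7 of 10 were at least 2-fold above control over the whole cluster, with a median log2 ratio of 3.42, and among MHC class II-low cells the median was 4.18. Without the cell of 13322 UMIs, which held 36.2% of the UMIs of its library's MHC class II-low cells, 3 genes of the list could be measured there and the median was -0.39. Pglyrp1, a peptidoglycan-binding granule protein, had 13, 90, 15 and 60 UMIs, 72 of them in that cell. Genes of the suppressive and tumour-associated list were at least 2-fold above control with the combination in 9 of 18 over the whole cluster and in 1 of 14 among MHC class II-low cells. MHC class II genes themselves, whose list median over the whole cluster was -0.59, -1.35 and -0.94, are the kind of gene by which the 2 sets of cells were told apart.

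**Figure D5:**
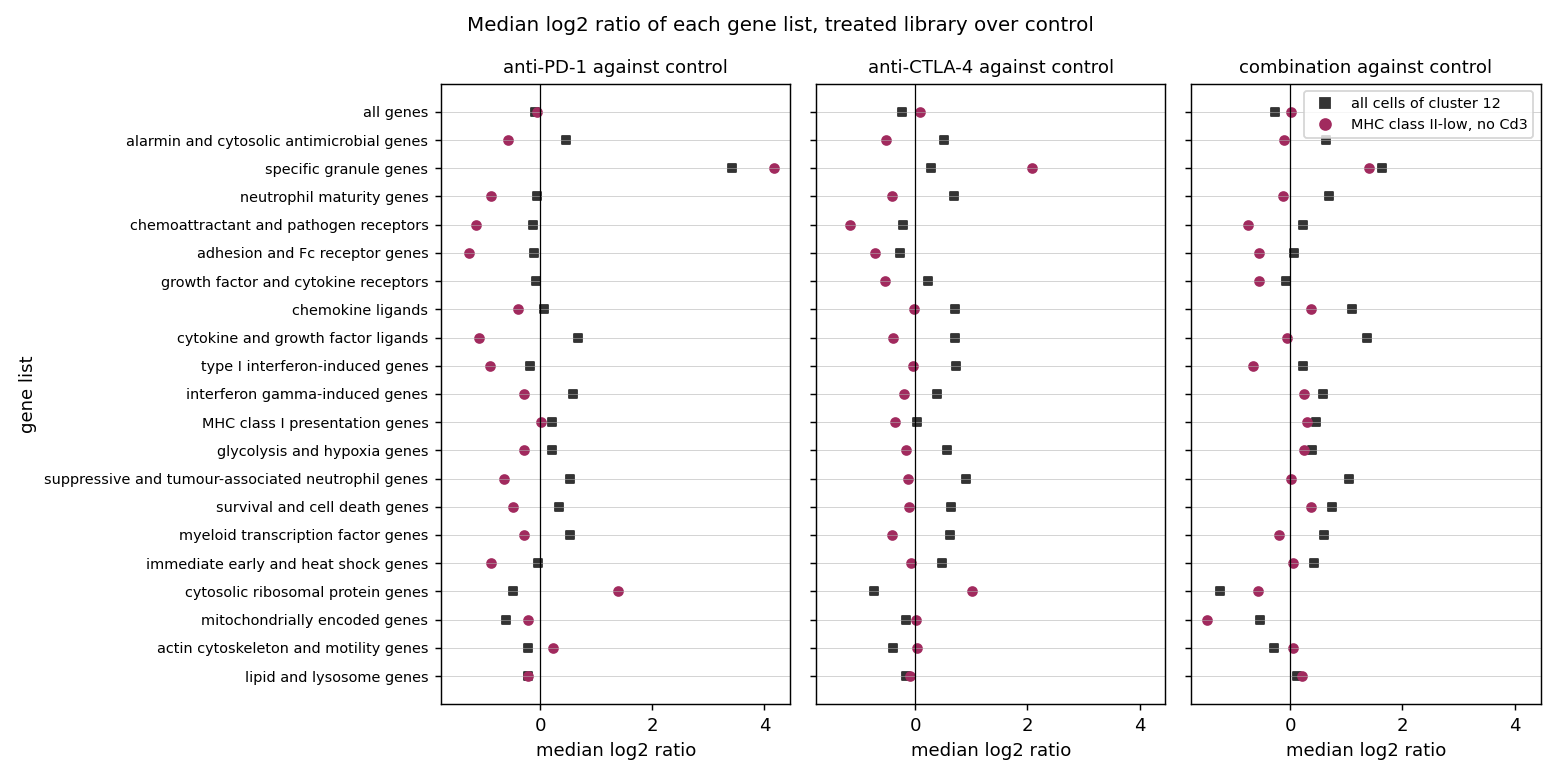
Median log2 ratio to control of the measured members of each gene list in the 3 treated libraries, over all cluster 12 cells and over the MHC class II-low cells. The median of specific granule genes with anti-PD-1 lies farthest from 0 at 3.42 over the cluster and 4.18 in the MHC class II-low cells, and that of mitochondrially encoded genes with the combination lies at -1.48 in the latter.

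The genes with the most extreme ratios between libraries were in most cases carried by 1 cell. Highest over control with anti-PD-1 were Chil3, a chitinase-like protein, Npepps, Pglyrp1, Gm16286 and Lcn2, with ratios from 3.23 to 5.23. A single cell each held 43 of the 51 UMIs of Chil3, 42 of the 47 of Npepps and 49 of the 53 of Gm16286. Highest with anti-CTLA-4 were Mob4, Gm9733, Pdlim7, Sgk3 and Wfdc17, with ratios from 3.51 to 4.01, and all but Wfdc17 had at least 24 UMIs in 1 cell. Highest with the combination were Cxcl1, Rinl, Gid8, Taf7 and Mmp12, and 35 of the 40 UMIs of Rinl and 42 of the 46 of Gid8 there came from 1 cell each. Of these Taf7, a subunit of the general transcription factor TFIID, was spread over 28 cells with 2, 5, 8 and 36 UMIs and a combination ratio of 3.34 (1.68 to 6.74). Mmp12 had 3, 6, 0 and 50 UMIs over the cluster and 0, 3, 0 and 1 among MHC class II-low cells. The lowest genes were Ubap2l, Napg, Ms4a7, Cnih4 and Cd72 with anti-PD-1, Mrc1, Cd72, Hmces, Anxa6 and Ms4a7 with anti-CTLA-4, and Hmces, H2-M3, Mterf3, Napg and Apoa1bp with the combination. Cd72, Ms4a7 and Mrc1 are macrophage genes: Cd72 had 43, 1, 0 and 5 UMIs over the cluster and 0 in MHC class II-low cells of every library, and Ms4a7 had 104, 2, 1 and 18 over the cluster and 0, 2, 0 and 1 in that set. Of the control UMIs of Hmces 33 came from 1 cell, of H2-M3 62 and of Napg 28.

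The combination was also compared with each single antibody. Over the whole cluster 10.6% of 1584 genes were at least 2-fold higher than with anti-PD-1 and 14.4% lower, and against anti-CTLA-4 9.77% and 7.36% of 1495. Among genes of the MHC class II-low cells, Ccl6 had log2 ratios of 1.84 (1.45 to 2.28) to anti-PD-1 and 0.93 (0.64 to 1.24) to anti-CTLA-4. G0s2 had 2.51 (2.04 to 3.06) and 0.69 (0.42 to 0.97), and Cxcl3 1.27 (0.95 to 1.60) and 1.02 (0.74 to 1.32). Each of these 6 ratios was above 0 beyond counting error, and without the largest anti-PD-1 cell the anti-PD-1 ratios were 1.19, 2.03 and 0.62. Cxcl2 was 1.21 (1.12 to 1.31) against anti-PD-1, or 0.56 without that cell, and 0.12 (0.05 to 0.19) against anti-CTLA-4. Isg15 was 1.11 (0.79 to 1.46) and -0.32 (-0.53 to -0.09), higher than anti-PD-1 and lower than anti-CTLA-4, and 0.51 against anti-PD-1 without that cell. Tnf was 1.72 (0.42 to 3.81) and -0.55 (-1.29 to 0.26), and Wfdc17 1.67 (0.96 to 2.55) and -0.47 (-0.86 to -0.06), with 1.07 and 1.11 against anti-PD-1 without that cell. The extremes by the naming rule were Cxcl1, Zfp281, Gid8, Asprv1 and Ccl8 above anti-PD-1 and Cxcl1, Mmp12, Jagn1, D16Ertd472e and Ccl8 above anti-CTLA-4. Asprv1, an aspartic protease, had 7, 2, 10 and 70 UMIs with 34 in 1 cell, and Ccl8, a monocyte chemokine, had 308, 25, 15 and 663 with 510 in 1 cell. Below anti-PD-1 were Mrpl12, Npepps, Gm16286, Ppp1cc and U2af1, and below anti-CTLA-4 Sgk3, Mob4, Sap30, Gm9733 and Hnrnpdl, with 21 to 51 UMIs in the top cell of each. By median-of-ratios scaling the share of 2-fold differences that were higher in the combination moved from 42.4% to 68.4% against anti-PD-1 and from 57.0% to 72.5% against anti-CTLA-4.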

How the data were processed

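The files were 1 count matrix per library, with whole UMI counts for 27998 genes in barcodes kept by the authors, and the authors' deposited cell table with a cluster number per cell. Per the labels' protocols the libraries were 10x 3′ libraries, and per the submitters' processing notes Cell Ranger, Seurat and build mm10 were used, with no versions. The sources used here do not say how the authors treated doublets, and no doublet caller was run. Cells were matched by library and barcode, and the rows of 65 repeated symbols were kept apart. Counts were summed per library, scaled to CPM and compared as log2 ratios with 0.5 added to each count. A gene was counted as different at 2-fold or more, with at least 20 UMIs in both sums together. No test was run, since each group was 1 library. Shares have exact Clopper-Pearson intervals and ratios exact conditional binomial intervals, all at 95% and for counting error only. For detection each cell was thinned to 800 UMIs. The ratio and interval code was tested on simulated data.

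The members and the 27 gene lists and 14 marker lists were chosen with earlier results of these data known, and 5 list members were not in the files. The MHC class II-low set, the values without the largest anti-PD-1 cell and the motifs were chosen after the data or the sequences had been seen. Genes were named from a list of 38, and some results of named genes are not reported here. To these came, against clusters 0, 1, 2, 4 and 7, the 15 highest and 10 lowest by the least extreme of the within-library ratios among genes with at least 50 UMIs. Between libraries came the 5 highest and 5 lowest among genes with at least 30 UMIs, 100 CPM and 5 cells. From each gene list came members with the largest ratios. Other genes, among them Wfdc21, Ccrl2, Clec4e, Ptafr, Egr1, Junb, Cebpb, Spi1, Nlrp3, Nfkbia, Ifit1, Slfn4, Thbs1, Socs1, Irf1 and the enzymes of the largest cell, were chosen after their values were seen. Tools were Python 3.11.15, numpy 2.4.6, pandas 2.3.3, scipy 1.17.1 and matplotlib 3.10.9.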

Additional observations from a re-analysis of the deposited data

Results flagged for a closer look

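S100a8 and S100a9 had opposite signs between control and combination in the MHC class II-low cells of cluster 12 and in clusters 0, 1, 2, 4 and 7. For S100a8 the log2 ratio of combination to control was -0.43 in the MHC class II-low cells and 2.06 in the 5 myeloid clusters. For S100a9 it was -0.57 and 0.95. The levels in the myeloid clusters were 49.96, 108, 85.8 and 208 CPM for S100a8 and 13.2, 10.6, 9.74 and 25.6 CPM for S100a9 in the control, anti-PD-1 alone, anti-CTLA-4 alone and combination libraries. In T cell-like clusters, thinned to 800 UMIs, 0.632, 0.719, 0.648 and 1.92% of cells held a UMI of S100a8 in the same order, and cluster 12 made up 1.40, 1.11, 1.23 and 2.94% of listed cells. With 1 library per group the difference between the cell sets was not tested.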

How the results depend on the processing

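With 1 library per group, no value shows how far 2 libraries of the same treatment would differ, and the MHC class II-low cells of control rest on 28622 UMIs. No paired analysis was possible because each group is 1 library. The share of cluster 12 kept its order of size relative to control in the combination under each definition and denominator tried. Without cells holding a Cd3 or C1q UMI the ratios to control were 1.54, 1.71 and 4.22 for anti-PD-1 alone, anti-CTLA-4 alone and both, and among MHC class II-low cells 1.68 and 3.89 for the last 2.

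Counts of genes at least 2-fold higher and lower followed the filter. Over control they were 57 and 67, 76 and 103, and 120 and 176 in the same order at 50 UMIs, and 1675 and 1768, 1891 and 2308, and 2042 and 3426 with no filter. Thinned to 800 UMIs they were 55 and 72, 77 and 111, and 114 and 171. Without cells holding a Cd3 or C1q UMI they were 64 and 52, 77 and 50, and 120 and 97. Among MHC class II-low cells they were 99 and 60 under anti-CTLA-4 alone and 121 and 83 under both. For anti-PD-1 78 were lower there, and 44 and 41 were higher and lower without the largest cell. Median-of-ratios scaling gave 368 and 237 for the combination.

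Against anti-PD-1 the combination counts were 268 and 124 by that scaling, 66 and 98 thinned, 895 and 2830 with no filter, 73 and 80 at 50 UMIs, 102 and 127 without cells holding a Cd3 or C1q UMI, and 83 and 86 among MHC class II-low cells without the largest anti-PD-1 cell. Against anti-CTLA-4 they were 80 and 71 thinned, 1132 and 1977 with no filter and 43 and 39 at 50 UMIs, and 73 were lower by median-of-ratios scaling. Against clusters 0, 1, 2, 4 and 7 the counts were 817 and 4085 when the highest of the 5 was used. The number lower was 1454 by median-of-ratios scaling, 4102 without cells holding a Cd3 or C1q UMI and 4320 among MHC class II-low cells. Cxcl10 was at -0.074 against the highest of the 5.

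Only ratios and list medians that were at least 2-fold in either direction over the whole cluster were screened for a change of sign. Smaller ones also changed sign among MHC class II-low cells, those of S100a8, S100a9 and Il1b in the combination included. The screened log2 ratios that changed sign were the following. Without cells holding a Cd3 or C1q UMI, S100a8 was at -0.79 for anti-PD-1, and Ccl3 at -0.067 and Il1rn at -0.47 for anti-CTLA-4. For the combination over control Ccl3 was at -0.075, Cxcl3 at -0.10, Il1rn at -0.34 and Mmp9 at -0.032, the median of cytokine ligands at -0.10 and that of the suppressive list at -0.059. Against anti-PD-1 Camp was at 6.11, Ngp at 6.67, Ly6c2 at 1.12 and the specific granule median at 0.25, and against anti-CTLA-4 Ccl8 was at -1.63. This setting also leaves out the largest anti-PD-1 cell, which held nearly all Camp and Ngp UMIs of its library. Among MHC class II-low cells Ccl3 was at -0.12, Cxcl2 at -0.021, Il1rn at -0.34 and the MHC class II median at 0.15 for anti-CTLA-4. For the combination Ccl3 was at -0.015, Cxcl3 at -0.094, Mmp9 at -0.16 and the cytokine median at -0.061, and Ccl8 was at -0.65 against anti-PD-1 and -1.05 against anti-CTLA-4.

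Several signs turned when 1 large anti-PD-1 cell was left out. Against anti-PD-1 the combination then had Camp at 6.22, Ngp at 5.20 and the specific granule median at 0.020. In MHC class II-low cells without it these were 5.61, 6.18 and 0.43. For anti-PD-1 over control S100a8 was at -0.63 there and the granule median at -0.39. Ccl8 against anti-PD-1 was at -0.96 there, but it had already changed sign, at -0.65, with that cell kept. Without the 10% of cells with the most UMIs Camp was at 6.38, Ngp at 5.35 and the median at 0.0092 against anti-PD-1, and the median for anti-PD-1 over control was at -0.055. Without each gene's top cell Camp was at 4.83 and Ngp at 3.78. Some ratios gave no value because under 20 UMIs were left, 58 of 207 among MHC class II-low cells, 62 of 207 without cells holding a Cd3 or C1q UMI, 36 of 207 without the top cell and 3 of 82 without the largest anti-PD-1 cell. Beyond the settings named, the causes of these shifts were not tested.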
